A study of Homo sapiens and Mus musculus with 29 samples.

Results

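RNA-seq libraries of 4 metastases and 5 pancreas tumors were compared, all grown in mice from HPAF-II cells labeled HNF4G knockout + FOXA1 (HNF4G-KO + FOXA1 below). They are 9 of the 29 libraries of the series and 9 of its 21 HPAF-II libraries, and they were taken from 5 mice. Membership was read from the labels and used no measured value. HPAF-II cells are a long-used human line derived from pancreatic ductal adenocarcinoma (PDAC), of its classical subtype. The cells had been edited with CRISPR at HNF4G and overexpressed FOXA1 from a lentivirus, and the labels give both alterations to tumors and metastases alike. The edited cells were a pool of 3 clones, which the study's methods describe as carrying heterozygotic frameshift mutations. They were injected into the tail of the pancreas of NSG mice, which lack functional lymphocytes and were obtained at about 8 weeks of age, and tissue was collected at a humane endpoint. Mouse 1 gave tumor 1, metastasis 1 from the spleen and metastasis 2 from peritoneal fat. Mouse 2 gave tumors 2 and 3, mouse 3 gave metastasis 3 from peritoneal fat, mouse 4 gave tumor 4 and metastasis 4 from the peritoneum, and mouse 5 gave tumor 5. Other groups used beside them carried the HNF4G knockout alone (4 tumors and 2 peritoneal metastases), FOXA1 overexpression alone (3 tumors) or neither (3 control tumors). No metastasis library of FOXA1-OE or control mice was analysed here, so a difference between metastasis and tumor is described only for cells with the HNF4G knockout.

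FOXA1 is a forkhead transcription factor of the pioneer type, which can bind DNA in closed chromatin and is known for its roles in endoderm and hormone-responsive tissues. HNF4G is an orphan nuclear receptor close in sequence to HNF4A, and both regulate genes of the gut, liver and pancreas. Cells that leave a pancreatic tumor often settle on the peritoneum and in abdominal fat, where they meet other host cells than in the pancreas.

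Sequencing depth was between 33.1 and 69.6 M counts per library, as the smallest spacing of its RPKM showed, and 13241 to 15476 genes were at 1 RPKM or more (RPKM is the number of reads divided by gene length in kilobases and by the total of reads). Mitochondrial transcripts took 19.2% of the RPKM in tumor 1 and 52.8% in tumors 2 and 4, with 33.4% to 44.3% in the other libraries. Tumor 5 stood apart, with correlations of 0.847 to 0.948 with the other libraries, against 0.915 to 0.975 between the rest. KRT8, KRT18 and KRT19, keratins of glandular epithelium, were at 515 RPKM or more in every library. PECAM1 of endothelium and PTPRC of blood cells were at 0.183 RPKM or less. The tissue is a mixture of human and mouse cells and no separation of their reads is described, so that mouse RNA from the host could be counted on human genes. Each of these libraries is bulk RNA, in which fewer cells of a type and less RNA per cell cannot be told apart.

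FOXA1 (chr14:37589552-37596059, minus strand, GRCh38), the gene delivered by the lentivirus, was less abundant in 3 of the 4 metastases than in any of the tumors. It was at 12, 5.76, 23.1, 6.5 and 4.65 RPKM in tumors 1 to 5, and at 0.535 in the spleen metastasis, 17.9 and 1.3 in the metastases in peritoneal fat and 1.55 in the peritoneal metastasis. The fat metastasis of mouse 1 was therefore above 4 of the 5 tumors, while the spleen metastasis of the same mouse was the lowest library of all. Over mice, log2(RPKM + 1) was 3.19 ± 0.59 in tumors (SD, n = 4) and 1.66 ± 0.67 in metastases (SD, n = 3), a log2 fold change of -1.53 (SE 0.38; limma, adjusted p = 0.797). The two-sided exact permutation test over the mice gave p = 0.0571, the smallest value that 35 regroupings allow. It treated tumors and metastases as unpaired, although mice 1 and 4 are in both groups. The 0.535 and 17.9 RPKM of mouse 1 entered it as their average on the log2 scale. With the mouse as a block the log2 fold change was -1.39 (SE 0.94; limma, adjusted p = 0.793). FOXA1 was at 0.519 to 0.932 RPKM in control tumors, 0.763 to 8.18 in FOXA1-OE tumors, 1.26 to 1.87 in HNF4G-KO tumors and 0.362 and 0.602 in HNF4G-KO metastases. The spleen metastasis thus lay at the level of control tumors, although it is labeled as carrying the FOXA1 construct. The RPKM do not separate transcripts of the construct from those of the cell's own gene.

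HNF4G, the target of the CRISPR guides, was above the control tumors in mRNA in 7 of the 9 libraries. Values of 7.09, 6.16, 6.67, 3.94 and 1.69 RPKM were measured in tumors 1 to 5 and 3.35, 5.43, 4.8 and 6.05 RPKM in metastases 1 to 4. Control tumors were at 2.48 to 3.47 RPKM, so that tumor 5 was below them and metastasis 1 within their range. The level of this mRNA therefore does not check the knockout label. The metastases lay within the range of the tumors (log2 fold change 0.18, SE 0.36; limma, adjusted p = 0.893).

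The other endoderm regulators had smaller log2 fold changes than FOXA1. HNF4A, the relative of HNF4G, was at 15.8 to 20 RPKM in tumors and 19 to 27.8 in metastases, and FOXA2, a forkhead relative of FOXA1, was at 14.5 to 21.6 RPKM in tumors and 18.2 to 28 in metastases. GATA6, a factor of the classical subtype, was at 4.62 to 7.23 RPKM in tumors and 5.38 to 10.3 in metastases. In each of these the ranges overlapped. GATA5 was listed at 0 in every library except tumor 5 (0.0141 RPKM). SOX4, a factor of progenitor cells, was at 25.6, 22.1, 24.3, 26.4 and 25.8 RPKM in the tumors and 19.3, 16.7, 14.3 and 16.6 RPKM in the metastases. SOX4 did not overlap between the groups (log2 fold change -0.61, SE 0.18; limma, adjusted p = 0.797). PRMT1, an arginine methyltransferase, was at 16.1 to 27.1 RPKM in tumors and 14.9 to 28.3 in metastases, TRIB1 at 16.4 to 48.7 and 18.7 to 29, and the noncoding RNA PVT1 at 3.66 to 7.44 and 3.22 to 5.12.

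**Figure D1:**
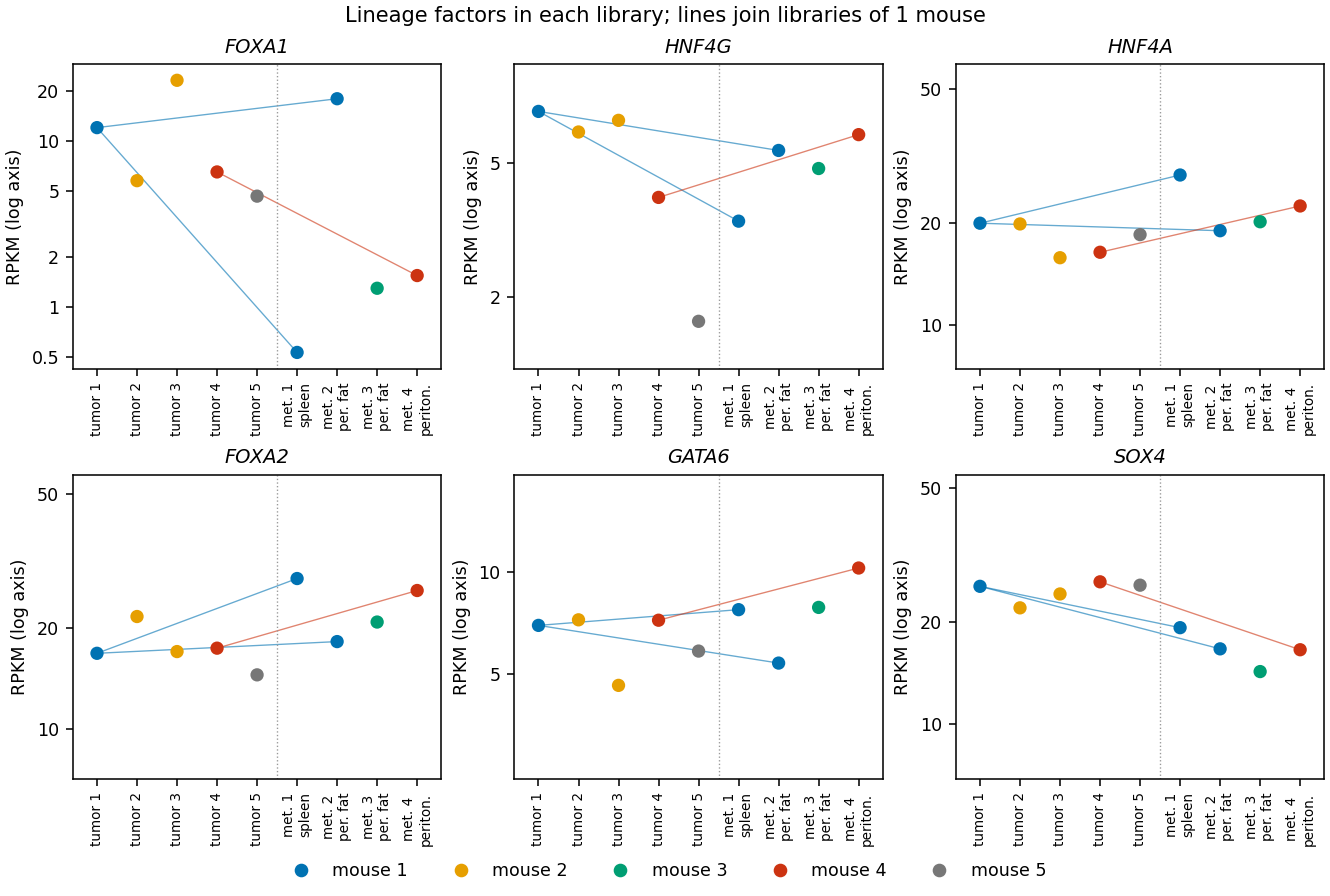
RPKM (log axis) of 6 transcription factors in each of the 5 tumors and 4 metastases, colored by mouse, with lines joining a tumor and the metastases of the same mouse. FOXA1 spans 0.535 to 17.9 RPKM among metastases of mouse 1 alone, while SOX4 is lower in all 4 metastases than in all 5 tumors.

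Across all genes the comparison called no gene. Libraries of one kind from one mouse were averaged, which leaves 3 mice with metastases and 4 with tumors. Mice 1 and 4 are in both groups, and this fit did not pair them. Of 14119 genes tested, 0 (0%) had an adjusted p below 0.05 in limma, the smallest being 0.321. Before adjustment, 332 genes (2.35%) were higher and 400 genes (2.83%) lower in metastases at p below 0.05. All 4 metastases were above all 5 tumors in 263 genes (1.86%) and below them in 114 genes (0.807%). The median log2 fold change of all genes was 0.04. Other planned fits did call genes: the mouse as a block called 10, all lower in metastases (0.0708% of genes), and a fit of all 6 HPAF-II groups that shared an estimate of the spread called 6 (0.0425%). These are named below with the fit that called them.

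In the fit with the mouse as a block, which compares tumors and metastases within mice 1 and 4, LCN2 fell in metastases. This fit used single libraries, so its SE and p rest partly on the spread between libraries of the same mouse. LCN2 encodes lipocalin 2, a secreted protein that binds bacterial siderophores and is induced in inflamed epithelia. LCN2 (chr9:128149071-128153453, plus strand, GRCh38) was at 161, 53.2, 52.5, 89 and 120 RPKM in tumors 1 to 5 and at 19.1, 22.9, 35.4 and 8.92 RPKM in metastases 1 to 4. Every metastasis was below every tumor, and the peritoneal metastasis was the lowest. Within mice the differences were -3.01 for the spleen and -2.76 for the fat metastasis of mouse 1 and -3.18 for the peritoneal metastasis of mouse 4, on the log2(RPKM + 1) scale. The blocked log2 fold change was -3.01 (SE 0.22; limma, adjusted p = 0.00238), and without the block it was -2.31 (SE 0.48; limma, adjusted p = 0.719). Over 18 alternatives the log2 fold change was between -3.01 and -1.8 and the adjusted p of limma between 0.00238 and 1. Of 50-base windows of the mouse gene, 5.56% were placed on the human LCN2 transcript, against a median of 17% over genes.

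SERPINA1, which encodes the protease inhibitor alpha-1-antitrypsin, fell with it. It was at 25.5, 16.9, 14.1, 37.5 and 16.1 RPKM in tumors 1 to 5 and 3.48, 3.74, 11.6 and 5.48 RPKM in metastases 1 to 4. The groups did not overlap, and the fat metastasis of mouse 3 was nearest to the tumors. The blocked log2 fold change was -2.54 (SE 0.19; limma, adjusted p = 0.00238), against -1.68 (SE 0.40; limma, adjusted p = 0.797) without the block, and the adjusted p of limma ranged from 0.00238 to 1 over the alternatives. The promoter sequences of SERPINA1 and LCN2 are shown as those of the 2 genes with the smallest adjusted p among the block calls outside the acinar list. The labels give the alterations of FOXA1 and HNF4G to tumors and metastases alike, while FOXA1 mRNA was lower in most metastases, as given above. Either factor's part in these 2 genes was not tested. The sequences are the 250 bases before the RefSeq start (GRCh38.p14), at chr14:94388603-94388852 on the minus strand for SERPINA1 and chr9:128149203-128149452 on the plus strand for LCN2, read 5′ to 3′ along the gene. Capitals mark TGTTTGC, a forkhead core, 108 bases before the start, and TGACCT, which is AGGTCA on the other strand, 84 bases before it.
SERPINA1: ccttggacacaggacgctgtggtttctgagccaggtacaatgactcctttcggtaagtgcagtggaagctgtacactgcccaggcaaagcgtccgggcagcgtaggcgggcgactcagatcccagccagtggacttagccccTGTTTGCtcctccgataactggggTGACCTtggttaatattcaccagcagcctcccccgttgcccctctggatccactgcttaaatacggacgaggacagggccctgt
LCN2: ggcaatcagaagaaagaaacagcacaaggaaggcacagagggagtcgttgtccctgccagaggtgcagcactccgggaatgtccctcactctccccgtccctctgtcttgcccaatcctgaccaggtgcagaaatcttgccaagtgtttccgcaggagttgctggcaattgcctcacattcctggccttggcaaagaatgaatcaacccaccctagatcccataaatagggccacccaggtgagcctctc
The forkhead core TGTTTAC was found in 2.98%, the variant TGTTTGC in 3.23%, the nuclear receptor core AGGTCA in 12.1% and the TATA box TATAAA in 10.7% of 35116 promoters of the same length, on either strand. None of them was found in the LCN2 window, nor in the window of the second start listed for SERPINA1 (chr14:94390636-94390885). Of the 10 genes of smallest p that were lower in metastases, 5 had a promoter in the table and 1 of these held a forkhead core (SNRPN). Of the 10 that were higher, 7 had a promoter and 1 held one (PROS1), while 6.09% of all promoters did.

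CYP24A1, the enzyme that breaks down active vitamin D, also fell with the mouse as a block. It was at 38.5, 23.8, 23.7, 21.5 and 14.8 RPKM in tumors and 11.3, 11.5, 28.5 and 7.55 RPKM in metastases. The groups overlapped, since metastasis 3, which has no tumor of its own mouse, was above 4 of the 5 tumors. The blocked log2 fold change of CYP24A1 was -1.55 (SE 0.19; limma, adjusted p = 0.048), and the value over mice was -0.73 (SE 0.43; limma, adjusted p = 0.797). Over the alternatives its adjusted p in limma was between 0.048 and 1.

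Of the other 7 genes that fell with the mouse as a block, 5 encode digestive enzymes of pancreatic acinar cells (CTRB2, CELA1, CPA1, AMY2B and PRSS3) and 2 are pseudogenes (PRSS3P1 and RPS27P8). CTRB2, a chymotrypsinogen, was at 11.8, 0.067, 0.194, 10.7 and 3.33 RPKM in tumors 1 to 5 and at 0.0514 to 0.109 RPKM in the metastases. Tumor 2 lay within the range of the metastases and tumor 3 just above it, while tumors 1, 4 and 5 were high. CPA1, a carboxypeptidase, was at 4.52, 0.0592, 0.012, 7.91 and 1.7 RPKM in the tumors, with 0 in metastases 1 to 3 and 0.00513 in metastasis 4. The blocked log2 fold changes of CTRB2 and CPA1 were -3.48 (SE 0.19; limma, adjusted p = 0.000577) and -2.76 (SE 0.22; limma, adjusted p = 0.00334). Over all alternatives their adjusted p in limma reached 1. Of the 26 genes of the acinar list, 9 had the mean of at least 1 RPKM needed for testing. These 9 had a median log2 fold change of -1.94, against 0.04 for all genes. Of them, 6 were lower at an unadjusted p below 0.05 (2.83% of all genes). CTRB2, CPA1 and AMY2B were below 1 RPKM in every metastasis and passed this filter only through the tumors. The median and the count therefore depend in part on the filter. The tumors lay in the pancreas and the metastases outside it, so that acinar tissue of the host and a change in tumor cells cannot be told apart from these values. Of the windows of mouse Cpa1, 25.8% were placed on the human transcript.

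In the fit of all 6 groups, CRABP2 fell and CALB2 rose. CRABP2 encodes a protein that carries retinoic acid to its receptors in the nucleus. CRABP2 (chr1:156699606-156705816, minus strand, GRCh38) was at 188, 81.6, 180, 101 and 143 RPKM in tumors 1 to 5 and at 23.6, 32.9, 52.3 and 39.1 RPKM in metastases 1 to 4. No metastasis reached the lowest tumor. Its log2 fold change was -1.78 (SE 0.30; limma, adjusted p = 0.346 over these mice and 0.0335 in the fit of 6 groups), and it was lower in all 3 pairs of tumor and metastasis from one mouse, by -2.94, -2.48 and -1.35. CALB2 encodes calretinin, a calcium-binding protein of neurons and mesothelium. CALB2 (chr16:71358713-71390436, plus strand, GRCh38) was at 9.85, 9.96, 6.37, 15.4 and 13.8 RPKM in the tumors and 66.7, 20.5, 32.4 and 29.2 RPKM in the metastases. The spleen metastasis was the highest, and every metastasis was above every tumor. The log2 fold change of CALB2 was 1.45 (SE 0.25; limma, adjusted p = 0.346, and 0.0335 in the fit of 6 groups). Over the alternatives the adjusted p in limma ranged from 0.0335 to 1 for both genes, with log2 fold changes from -2.12 to -1.55 for CRABP2 and from 1.17 to 1.85 for CALB2. CALB2 is a marker of mesothelium, the lining of the peritoneum. Of the 6 tested members of that list, 2 were higher at an unadjusted p below 0.05 (2.35% of all genes), CALB2 among them. MSLN, or mesothelin, was at 56.5 to 298 RPKM in tumors and 74.8 to 155 in metastases, and the defining markers LRRN4 and WT1 were below 1 RPKM in every library. Of the windows of mouse Calb2, 46.4% were placed on the human transcript, and the part of host RNA in its values was not tested.

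The other 4 genes called in the fit of all 6 groups fell: QRFPR, ARC, FGB and ENSG00000237550. QRFPR, a receptor for the neuropeptide QRFP, was at 4.2, 2.4, 5.24, 3.03 and 2.33 RPKM in tumors and 0, 2.15, 0.223 and 0.93 RPKM in metastases, with metastasis 2 close to the lowest tumor. FGB, the fibrinogen beta chain, was at 1.76, 2.82, 2.5, 0.606 and 1.11 RPKM in tumors and between 0.0223 and 0.0637 RPKM in metastases. ARC, an immediate early gene of neurons, was at 0.841 to 2.91 RPKM in tumors and 0.15 to 0.577 in metastases. FGB and ARC were below 1 RPKM in every metastasis. They reached the mean of 1 RPKM needed for testing only through the tumors, so their calls depend in part on this filter. ENSG00000237550, a transcribed processed pseudogene on chromosome 15, was at 17.4 to 61.3 RPKM in tumors and 7.15 to 12.2 in metastases. It had the smallest p of the comparison over mice (log2 fold change -2.21, SE 0.29; limma, adjusted p = 0.321). The adjusted p in the fit of 6 groups was 0.0181 for QRFPR, 0.0362 for FGB, 0.0164 for ARC and 0.0181 for ENSG00000237550 (limma), and over all alternatives it reached 1 for each.

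None of the other genes of smallest p was called in limma, with or without the block. The sodium and proton exchanger SLC9A4 was at 0.524 to 3.86 RPKM in tumors and 3.42 to 8.13 in metastases, and its relative SLC9A2 at 5.21 to 14.5 and 11.2 to 20.9. CES2, a carboxylesterase, was at 6.64 to 10.2 RPKM in tumors and 12.7 to 19 in metastases. PLCG1, a phospholipase of receptor signaling, was at 4.81 to 6.76 RPKM in tumors and 8.38 to 11.1 in metastases. SLC9A4 and SLC9A2 overlapped between the groups, whereas CES2 and PLCG1 did not. Among lower genes, SNRPN, an imprinted gene that encodes a splicing factor, was at 2.11 to 4.86 RPKM in tumors and 1.17 to 1.78 in metastases without overlap. INS, the insulin gene of islet beta cells, was at 2.12, 8.15, 0, 2.92 and 8.16 RPKM in the tumors and listed at 0 in all 4 metastases. It was therefore tested only because of its tumor values.

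Within mice, more genes were lower than higher in metastases. The spleen metastasis differed from tumor 1 by at least 2-fold in 141 genes that were higher and 386 that were lower, the fat metastasis of mouse 1 in 90 and 240, and the peritoneal metastasis in 144 and 803 compared with tumor 4. Tumor 4 had 15476 genes at 1 RPKM or more and a depth of 35.3 M counts, against 13902 genes and 66.7 M counts in the peritoneal metastasis. The part of this library difference in the 803 genes was not tested. In all 3 pairs, 62 genes (0.439% of those tested) were at least 2-fold lower and 4 genes (0.0283%) at least 2-fold higher. Mouse 1 contributed 2 of the 3 pairs through the same tumor, and these counts have no test. The 4 higher genes were the pseudogenes RPSAP14, MTCO2P12, PTMAP2 and RPL12P8. The 62 lower genes held 36 protein-coding genes, among them LCN2, SERPINA1, CRABP2, CYP24A1, acinar genes, TFF3 and 9 genes of the hypoxia list. They also held 18 small RNAs (29% of them, against 3.95% of all genes tested), a kind of RNA that mostly lacks the poly(A) tail which mRNA kits select. RN7SL2, an RNA of the signal recognition particle, had the largest difference of all, and was at 375, 209, 38.5, 2442 and 1882 RPKM in tumors 1 to 5 and 58.1, 50.6, 528 and 37.8 RPKM in metastases 1 to 4. RN7SK, which holds back transcription elongation, was at 233, 812, 85.6, 3167 and 5649 RPKM in the tumors and 37, 70.6, 2605 and 124 RPKM in the metastases. Both were high in tumors 4 and 5 and metastasis 3 and low in tumor 3 and the other metastases, so that they moved with the groups within mice, and the part of such library differences in the values of other genes was not tested.

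The hypoxia and glycolysis list holds targets of the hypoxia-inducible factors, which are stabilized when oxygen is low, and enzymes of glucose breakdown. Of its 27 tested genes, 21 were lower in metastases, 5 of them at an unadjusted p below 0.05 (2.83% of all genes), and none was called in limma with or without the block. The median log2 fold change was -0.43 over mice and -0.84 with the mouse as a block, against 0.04 and -0.03 for all genes. ADM, ANGPTL4, CA9, EGLN3, ENO2, NDRG1, PFKFB3, PFKFB4 and PGK1 were at least 2-fold lower in all 3 pairs, 9 of 27 genes against the 0.439% of all genes given above. CA9, a carbonic anhydrase of the cell surface that acidifies the surroundings, was at 22.2, 3.93, 1.27, 11.2 and 9.99 RPKM in tumors 1 to 5 and 2.89, 2.15, 3.18 and 1.81 RPKM in metastases 1 to 4. Tumor 3 was lower than all metastases, and the groups overlapped. EGLN3, a prolyl hydroxylase that marks hypoxia-inducible factors for degradation, was at 42.6, 17.9, 5.54, 25.5 and 19.2 RPKM in tumors and 3.59, 5.58, 18.6 and 4.6 RPKM in metastases. The blocked log2 fold changes were -2.47 (SE 0.33) for CA9 and -2.67 (SE 0.43) for EGLN3, with adjusted p of 0.0715 and 0.127 in limma.

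Metastasis 3 has no tumor from its own mouse, and its levels of these genes varied: CA9 was near that of the other metastases, as given above, while ADM, PFKFB3 and NDRG1 were higher in it. ADM, the vasodilator peptide adrenomedullin, was at 36.7, 8.67, 5.82, 8.95 and 8.8 RPKM in tumors and 2.67, 4.62, 13.1 and 2.58 RPKM in metastases. Metastasis 3 was above 4 of the 5 tumors, and tumor 1, the tumor of both mouse 1 pairs, was the highest library. PFKFB3, which makes the activator of phosphofructokinase, was at 23.4 RPKM in tumor 1, 7.99 to 8.51 in the other tumors, 11.6 in metastasis 3 and 3.35 to 4.86 in the other metastases. NDRG1 was at 34 RPKM in metastasis 3 and at 9.5 to 12.4 in the others, with 11.6 to 79.2 in tumors. Mitochondrial transcripts were also lowest in tumor 1, as given above, and their 13 genes had a blocked median log2 fold change of 0.88. The part of their share in the RPKM of other genes was not tested here, apart from a shift of all libraries to the same median.

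**Figure D2:**
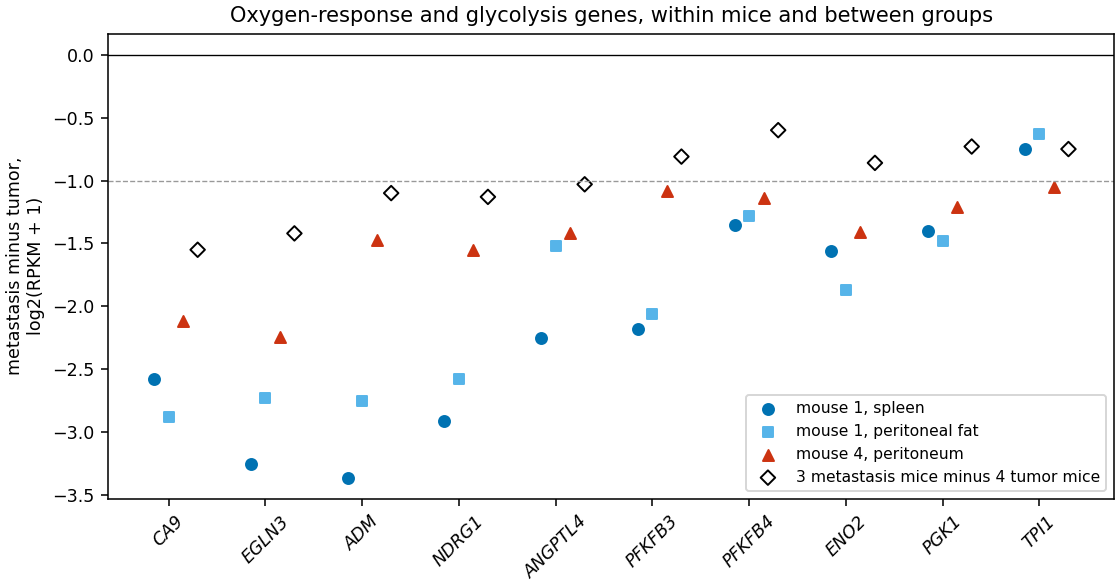
Difference between metastasis and tumor in log2(RPKM + 1) for 10 genes of the hypoxia and glycolysis list, within mouse 1 (spleen and peritoneal fat, against the same tumor), within mouse 4 (peritoneum) and between 3 metastasis mice and 4 tumor mice. The dashed line is a 2-fold difference, and 9 of the genes lie below it in all 3 pairs while the value over mice is closer to 0 than in any pair for 9 of the 10.

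Interferon-induced genes are part of the antiviral response of a cell. Of 27 tested genes of the list, 22 were lower in metastases, as 6283 of the 14119 genes tested were, 4 of them at an unadjusted p below 0.05 (2.83% of all genes) and none called in limma, with a median log2 fold change of -0.35. Within mice the median was -0.70 for the spleen and -0.54 for the fat metastasis of mouse 1, but 0.23 for the peritoneal metastasis of mouse 4. IFI27 was at 579, 224, 227, 344 and 604 RPKM in tumors and 353, 258, 118 and 215 RPKM in metastases. Tumors 1, 4 and 5 were higher than tumors 2 and 3 from the same mouse, and the groups overlapped. HERC6, an interferon-induced ligase, was at 8.59 to 13.6 RPKM in tumors and 5.61 to 8.58 in metastases, the only gene of the list with no overlap (0.807% of all genes were below all tumors).

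Genes of sterol and fatty acid synthesis are controlled by the SREBP factors. Of 26 tested genes, 22 were higher in metastases, as 7836 of the 14119 genes tested were (55.5%), 2 of them at an unadjusted p below 0.05 (2.35% of all genes), and 4 had all metastases above all tumors (1.86% of all genes). The median log2 fold change was 0.32, and none was called in limma. ELOVL6, which lengthens fatty acids, was at 3.85, 6.9, 6.02, 5.61 and 3.65 RPKM in tumors and 5.08, 8.79, 7.05 and 8.35 RPKM in metastases. The spleen metastasis lay within the range of the tumors and the other metastases above it, with a log2 fold change of 0.53 (SE 0.22). IDI1, an isomerase of the mevalonate pathway, was at 7.75 to 19.2 RPKM in tumors and 13.1 to 20.4 in metastases. Lipid uptake and oxidation genes had a median of 0.06, close to that of all genes. Among them CPT1A, which brings fatty acids into mitochondria, was at 9.18 to 18.8 RPKM in tumors and 17.8 to 22.5 in metastases.

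Lists of PDAC subtype and invasion held no gene called in limma. The classical PDAC list had a median log2 fold change of 0.04 over 22 genes, the basal-like list -0.26 over 21 genes, the epithelial list -0.09 over 25 genes, and the list of epithelial to mesenchymal transition (EMT) 0.14 over 16 genes. In the basal-like list 15 genes were lower, as 6283 of the 14119 genes tested were, 3 of them at an unadjusted p below 0.05 (2.83% of all genes). TFF3, a trefoil peptide of mucosa and classical tumors, was at 16.4, 10.1, 0.27, 20.4 and 42.5 RPKM in tumors and 1.22, 2.44, 5.55 and 5.12 RPKM in metastases, with tumor 3 the lowest library of all. S100A2 and KRT7, of the basal-like list, were at 3.18 to 13.9 and 372 to 965 RPKM in tumors and at 2.82 to 4.76 and 258 to 613 RPKM in metastases. MMP7, a secreted protease of glandular tumors, was at 771, 235, 846, 311 and 206 RPKM in tumors and 145, 286, 72.6 and 85.6 RPKM in metastases. The fat metastasis of mouse 1 overlapped the tumors, and the other metastases were below all of them. The log2 fold change of MMP7 was -1.82 (SE 0.50; limma, adjusted p = 0.797). Proliferation genes had a median of 0.18 over 30 genes, with 24 higher (55.5% of all genes).

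**Figure D3:**
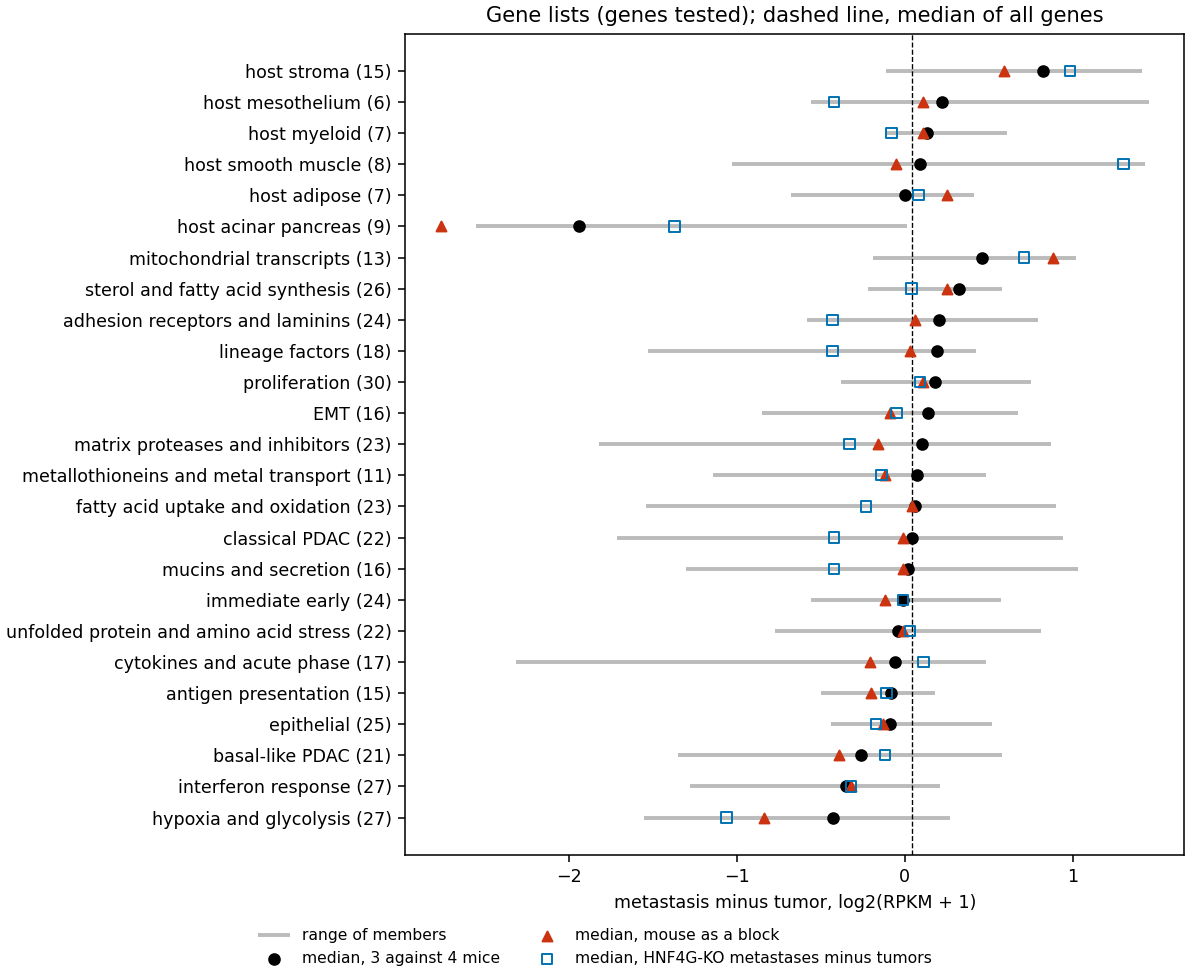
Median log2 fold change of the 25 gene lists with at least 6 genes tested, over mice (black), with the mouse as a block (red triangles) and in HNF4G-KO metastases against HNF4G-KO tumors (open squares), with the range of the members (gray bar) and the number of genes tested in parentheses. The acinar list lies at -1.94, the hypoxia list at -0.43, the sterol list at 0.32 and the host stroma list at 0.82 over mice, beside 0.04 for all genes.

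Genes of host tissue differed by list. Of 15 tested stroma genes, 14 were higher in metastases (55.5% of all genes) and 8 of them at an unadjusted p below 0.05 (2.35% of all genes), with a median log2 fold change of 0.82 and none called in limma. COL1A1, the main fibrillar collagen, was at 20.2, 26.2, 32.8, 49.6 and 19.9 RPKM in tumors and 47.6, 28, 99.9 and 81 RPKM in metastases. Metastases 3 and 4 were above all tumors, and metastases 1 and 2 were within their range. Summed over the list, stroma genes were at 79.9 to 168 RPKM in tumors and 129 to 289 RPKM in metastases. Of the windows of mouse Col1a1 and Col3a1, 66.1% and 55% were placed on the human transcripts. Summed acinar genes were at 30.2 to 240 RPKM in tumors and 32.4 to 67.5 in metastases, and summed islet genes at 2.4 to 11.3 and 1.26 to 2.07. Most of the acinar sum in the metastases was RNASE1, at 27.8 to 65.1 RPKM there and 25.9 to 82.7 in tumors.

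Apart from CALB2 of mesothelium, which did not overlap as given above, the markers of the labeled sites named here overlapped between tumors and metastases. ADIPOQ and FABP4, which define fat cells, were at 0.00623 and 0.0865 RPKM or less in every library, including the metastases in peritoneal fat. The summed adipose list was at 69.2 to 117 RPKM in tumors and 63.7 to 112 in metastases. Much of this sum was CIDEC, at 17.4 to 54.1 RPKM over the 9 libraries, and PPARG, at 18.7 to 36.8. MSLN and UPK3B, of the mesothelium that lines the peritoneum, were at 56.5 RPKM or more and 14.7 RPKM or more in every library, with 136 and 34.3 in tumor 1 and 102 and 29.6 in the peritoneal metastasis. Only 2.33% and 8.57% of the windows of their mouse genes were placed on the human transcripts, and the part of host RNA in them was not tested. HBB of red cells was at 8.19 RPKM in the spleen metastasis, but also at 6.98 in tumor 1 of the same mouse, and at 0.0241 to 0.564 elsewhere. AHSP, RETN and S100A8 were listed at 0 in all 9 libraries. With 1 spleen, 1 peritoneal and 2 fat metastases, the site cannot be told apart from the mouse and the library, and no test between sites was made.

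**Figure D4:**
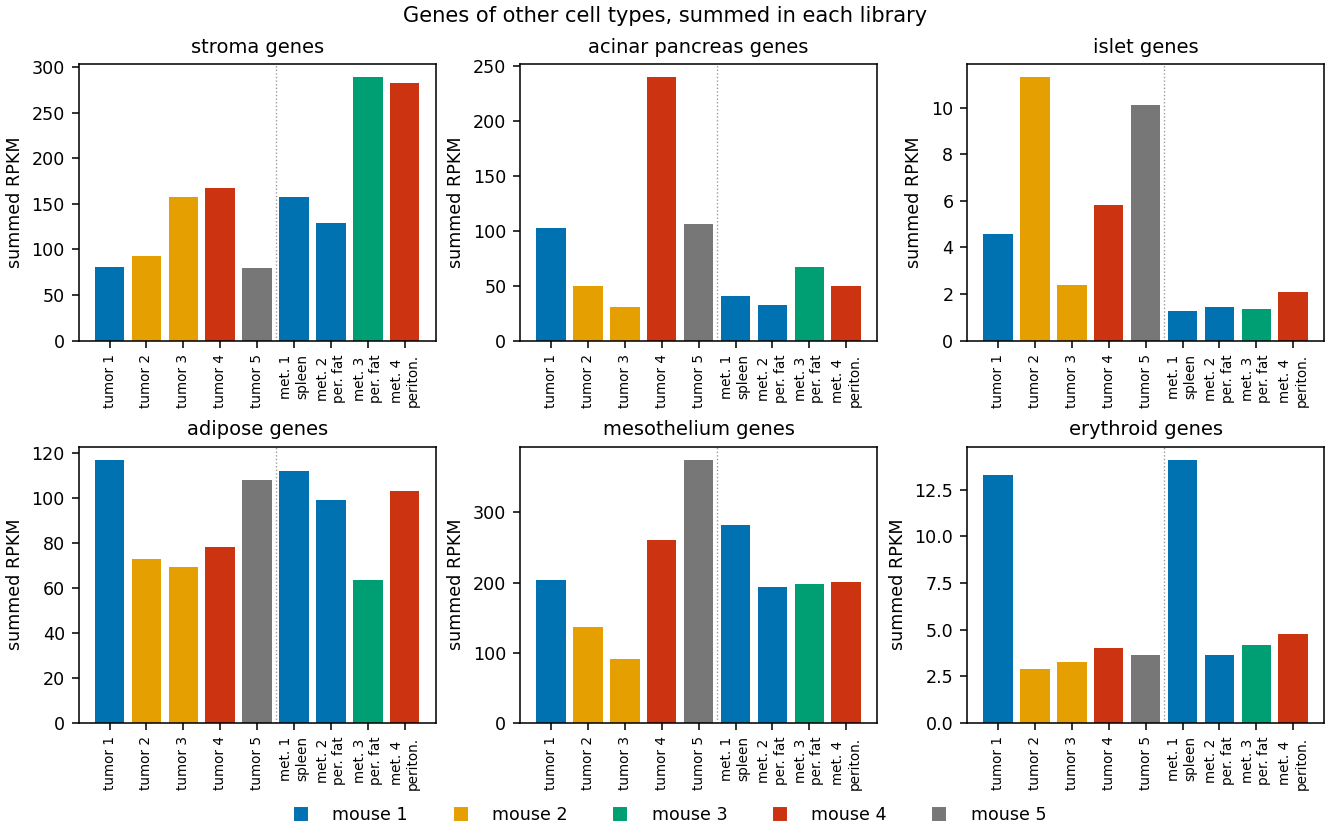
Summed RPKM of 6 lists of host cell type genes in each of the 5 tumors and 4 metastases, colored by mouse. Stroma genes reach 289 RPKM in metastasis 3 and 283 in metastasis 4, acinar genes 240 RPKM in tumor 4, and islet genes stay at 2.07 RPKM or less in the metastases. RNASE1 alone makes up most of the acinar sum in the metastases.

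The metastases of mice injected with HNF4G-KO cells without FOXA1 come from other mice and offer the only comparison with another genotype. The difference between the metastasis effects of the 2 genotypes called 0 of 14119 genes (0%) in limma, with a smallest adjusted p of 0.268. Of these genes, 2248 had an unadjusted p below 0.05 in limma, against 732 for metastases against tumors with FOXA1. This contrast rests on 2 HNF4G-KO metastases. The call was 0 to 97 when the libraries of one kind from one mouse were left out in turn, and the 97 genes appeared without HNF4G-KO metastasis 1. The 10 genes of smallest p that were lower with FOXA1 were all lower in HNF4G-KO metastases as well, 6 of them with both metastases below all 4 tumors. Of the 10 that were higher, 5 were also higher there, 1 of them with no overlap, while over all genes 39.6% were higher and 11.9% were above all 4 tumors. Of the 263 genes above all tumors with FOXA1, 41.8% were higher and 8.75% were above all tumors in HNF4G-KO. Over all genes, 60.3% were lower in HNF4G-KO metastases and 20.8% were below all 4 tumors, and of the 114 genes below all tumors with FOXA1, 53.5% and 22.8% were. CRABP2 was at 81.4, 93.3, 111 and 136 RPKM in HNF4G-KO tumors and 53.5 and 31.1 RPKM in HNF4G-KO metastases, LCN2 at 56.8 to 76.5 and at 32.2 and 12.1, and SERPINA1 at 16.7 to 19.1 and at 2.3 and 9.16. CALB2 was at 12.5 to 24.3 RPKM in the tumors and 32.2 and 36.8 RPKM in the metastases. The same direction was thus present for these genes in mice whose cells carried no FOXA1 construct. The hypoxia list had a median log2 fold change of -1.06 in HNF4G-KO and the stroma list 0.98, while the sterol list was at 0.04 and that of all genes at -0.08. The stroma value leaned on HNF4G-KO metastasis 2. COL1A1 was at 25.1 and 161 RPKM in HNF4G-KO metastases 1 and 2, against 15.4 to 28.1 in HNF4G-KO tumors. The muscle actin ACTA1 was at 1.24 and 733 RPKM in these metastases.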

How the data were processed

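The authors aligned reads with STAR 2.6.1a and counted them with featureCounts 2.0.4, as the submitters' processing notes name them, and deposited RPKM values for 58719 genes. The notes name GRCh38, the paper's methods GRCh37. Coordinates are from GENCODE 44 (GRCh38). Reads came from a stranded mRNA kit. DESeq2 is named but needs counts, which were not used here, so limma 3.58.1 (R 4.3.3, trended eBayes, Benjamini-Hochberg, threshold 0.05) was run on log2(RPKM + 1), a scale that understates changes of low genes, for genes whose mean was at least 1 RPKM. Libraries of one kind from one mouse were averaged, except in the fits of single libraries and those with the mouse as a fixed or random block, which used single libraries. With the commonest step of a library's RPKM taken as 2 counts, 99.8% of values below 20 counts were whole within 0.02, which gave a median depth of 57.1 M counts. Interest in these libraries, the gene lists and the named genes was set with earlier results of these data known. Named were regulators the study names, the 10 genes of smallest p in each direction, and up to 4 members of each list. Genes called only by another fit, or lower in all 3 pairs, were added after their values were seen. Tumor and metastasis pair by animal, and the correlation of their deviations was 0.21 and 0.36 in mouse 1 and 0.01 in mouse 4. Mouse transcripts were cut into windows of 50 bases and aligned to human transcripts with bwa 0.7.19-r1273. The main fit over mice was tested on simulated libraries without a shared mouse effect. The blocked fits and the fit of all 6 groups were not. The labels name the animals, so p-values of the fits on averages per mouse, which left tumor and metastasis unpaired, measure the spread between mice. Those of the fits on single libraries also rest on the spread between libraries of the same mouse. One label field counts FOXA1 up to FOXA9 across these libraries, while source name and treatment give FOXA1 for all. Alternatives were a pseudocount of 0.1, no filter, libraries shifted to one median, single libraries, the mouse as a fixed or random block, all 6 groups, host covariates, and leaving out the spleen metastasis or, in turn, the tumors or metastases of one mouse. Values of a few list members are not reported here.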

Additional observations from a re-analysis of the deposited data

Results flagged for a closer look

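In 9 of 104 groups of libraries examined for 52 named genes, the highest or lowest library was far from the others by Dixon's ratio (its gap to the nearest library over the range of the group), and chance gives this in about 1 in 20 groups. No cause was tested for any of them. In tumor 5, GATA5 was at 0.0141 RPKM with the other tumors at 0 (ratio 1), and B3GNT9 was at 1.41 RPKM with the others at 2.8 to 3.25 (ratio 0.802). In tumor 1, ADM was at 36.7 RPKM with the others at 5.82 to 8.95 (ratio 0.779), and PFKFB3 at 23.4 RPKM with the others at 7.99 to 8.51 (ratio 0.944). In tumor 2, LINC02178 was at 2.37 RPKM with the others at 5.75 to 7.17 (ratio 0.785). In metastasis 2, from peritoneal fat, BTNL9 was at 1.18 RPKM with the others at 1.98 to 2.16 (ratio 0.841). In metastasis 3, also from peritoneal fat, MT1X was at 3.45 RPKM with the others at 0.582 to 0.634 (ratio 0.969). In metastasis 4, from the peritoneum, CPA1 was at 0.00513 RPKM and PRSS3P1 at 0.0404 RPKM, with the other metastases at 0 (ratio 1 for each). Where all others are at 0, as for GATA5, CPA1 and PRSS3P1, the ratio is 1 for any value above 0. These flags therefore cannot be set against the chance share.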

How the results depend on the processing

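The count of called genes rested on the fit. It was 0 over mice in limma (732 genes at an unadjusted p below 0.05), 10 with the mouse as a replicate block, 6 in one fit of all 6 groups, 0 with the mouse as a random block (1326 genes at an unadjusted p below 0.05) and 0 to 4 when the tumors or the metastases of one mouse were left out in turn, the 4 without tumors 2 and 3. For the difference from HNF4G-KO it was 0, with 1 gene (FER1L6) without the spleen metastasis and 0 to 97 with them left out, the 97 without HNF4G-KO metastasis 1. The block called no gene for this difference.

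For 73 named genes under 18 alternatives, 1277 of 1314 values kept their direction and their side of the threshold, 19 passed it and 18 changed sign in 6 genes. HNF4G was -0.13 with the replicate block, -0.02 with a host stroma and -0.02 with a host acinar covariate, -0.37 without tumors 4 and 5, and -0.15 (without tumor 5) to 0.38 with them left out. PRMT1 was 0.08 by single libraries, 0.22 with the replicate block, 0.10 with a random block, 0.37 with the stroma covariate, and -0.23 to 0.18 with them left out (0.03 without tumor 1). MYC was 0.32 with the stroma covariate and -0.37 to 0.23 with them left out (0.11 without tumors 2 and 3). With the acinar covariate AMY2B was 0.06, PRSS3P1 0.07 and ENO2 0.01. This covariate is the mean of the acinar list, to which AMY2B itself belongs. The acinar covariate and the fit without tumors 4 and 5 were chosen after seeing the data. Of 522 list medians, 26 moved by more than the spread between libraries. The stroma median was 0.10 with the stroma covariate, and the acinar median was -3.95 with a pseudocount of 0.1. The stroma covariate is the mean of the same genes, so it removes their mean difference by construction. The cause of the other moves was not tested.

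With 3 and 4 mice an exact test that ignores the pairing of mice 1 and 4 cannot fall below 0.0571. Genes near 1 RPKM rest on few counts, and single genes can share reads with pseudogenes.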

Other observations

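Each metastasis held genes that were above every other library of the 9. Of those with the largest excess on the log2(RPKM + 1) scale, the protein-coding genes are named here and noncoding genes and pseudogenes are left out. Each excess is that of 1 library, so these are values without a test. The spleen metastasis led in CALB2 (66.7 RPKM, others 32.4 or less), TOX2 (8.66, others 4.64 or less) and AIFM2 (9.15, others 4.93 or less). The fat metastasis of mouse 1 led in TMPRSS11E, a serine protease of squamous epithelium (19.9 RPKM, others 5 or less), and SLC37A2 (6.77, others 1.68 or less). It also led in CGB5 (8.68 RPKM, others 2.87 or less), SPRR3, a protein of the cornified envelope (180, others 74.9 or less), and CST6 (19.9, others 8.15 or less). The fat metastasis of mouse 3 led in CYP1B1, an enzyme of xenobiotic and estrogen metabolism (7.52 RPKM, others 1.32 or less), and MUC6, a gastric gland mucin (55 RPKM, others 14.5 or less). The peritoneal metastasis led in the glucuronosyltransferases UGT2A3 (16.8 RPKM, others 4 or less), UGT2B15 (41.9, others 17.3 or less) and UGT2B10 (8.48, others 3.1 or less), and in ECM1 (164 RPKM, others 66.5 or less).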
